A study of Mus musculus with 12 samples.

Results

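The libraries described here are the 3 of the series' 12 that carry the label of brain microvascular pericytes given phosphate-buffered saline (PBS). They were taken by their labels alone, with no use of measured values, and they are the PBS libraries 1, 2 and 3. The series concerns Ly6C-low monocytes and macrophages of the retina and injury of the optic nerve. Its 6 retina libraries, and 3 libraries of the same pericyte label treated with vesicles, were not analysed here. All 3 PBS libraries came from mouse cells of WT genotype, sampled at 12 hours, and their titles bear the mark P4 with no key to it. The labels give no strain, age, sex, medium or way of isolating the cells, and do not say whether the libraries are separate cultures or hold cells pooled from several animals. The SD between libraries may therefore be technical.

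Pericytes are the mural cells of capillaries. They lie within the basement membrane that they share with the endothelium, depend on platelet-derived growth factor signalling through Pdgfrb, and in the brain take part in the blood-brain barrier and in the control of flow. In brain tissue they are usually told from smooth muscle, fibroblasts and glia by Rgs5, by the potassium channel parts Kcnj8 and Abcc9, and by Vtn, Higd1b, Ndufa4l2 and Atp13a5.

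The RNA of these libraries did not carry the full marker set of the label. Of 12 defining pericyte genes, 6 reached 1 CPM, counts scaled to a library total of 1000000, in every library, near the 57.3% of all protein-coding genes that did. Of the other members, Abcc9, Higd1b and Ndufa4l2 had 0 counts in all 3 libraries. Of 10 defining astroglial genes 9 reached that level, as did 9 of 10 of neural progenitors. Aqp4, Gfap, Slc1a3, Nes and Sox2 all stood between 211 and 724 CPM in every library. Nes is also on the list of mesenchymal progenitors. Genes of basement membrane were also high, those of the fibroblast list ranged widely, and those of skeletal and cardiac muscle and epithelium were low. Of defining genes, 5 of 9 of endothelium and 7 of 10 of leukocytes reached 1 CPM. Per length, the medians of the defining genes were low for both, at 0.578 and 3.02 TPM. The pericyte ones had a median of 1.805 TPM and the astroglial ones 129 TPM. The libraries are therefore called here by their label only, as the PBS libraries. RNA of this kind is an average over cells, so fewer cells of a type and less RNA per cell cannot be told apart.

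Library totals were 37954077, 33001248 and 36577138 counts. At these depths 3 counts came to between 0.0790 and 0.0905 CPM in a library, the level below which a gene was treated as not detectable. Of 55401 genes in the table, 13634 reached 1 CPM in every library (24.6%), and of 21859 protein-coding genes 12534 did (57.3%). The counts of list members below are to be read against 57.3%. The median protein-coding gene stood at 6.03 CPM. Levels of different genes are compared per length, in TPM, counts divided by exon length and scaled to a sum of 1000000. Thresholds, summed lists and the 15 genes of highest CPM are not corrected for length. In TPM the median protein-coding gene stood at 4.91. Mitochondrial mRNAs took between 1.92% and 2.11% of counts. Each pair of libraries differed by more than counting noise, with chi-squared per degree of freedom between 6.12 and 15.4, so none was a copy of another. The common biological coefficient of variation was 0.0656, and the median SD of a protein-coding gene of at least 10 CPM was 4.42% of its mean. Values after ± are SDs over the 3 libraries throughout.

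**Figure D1:**
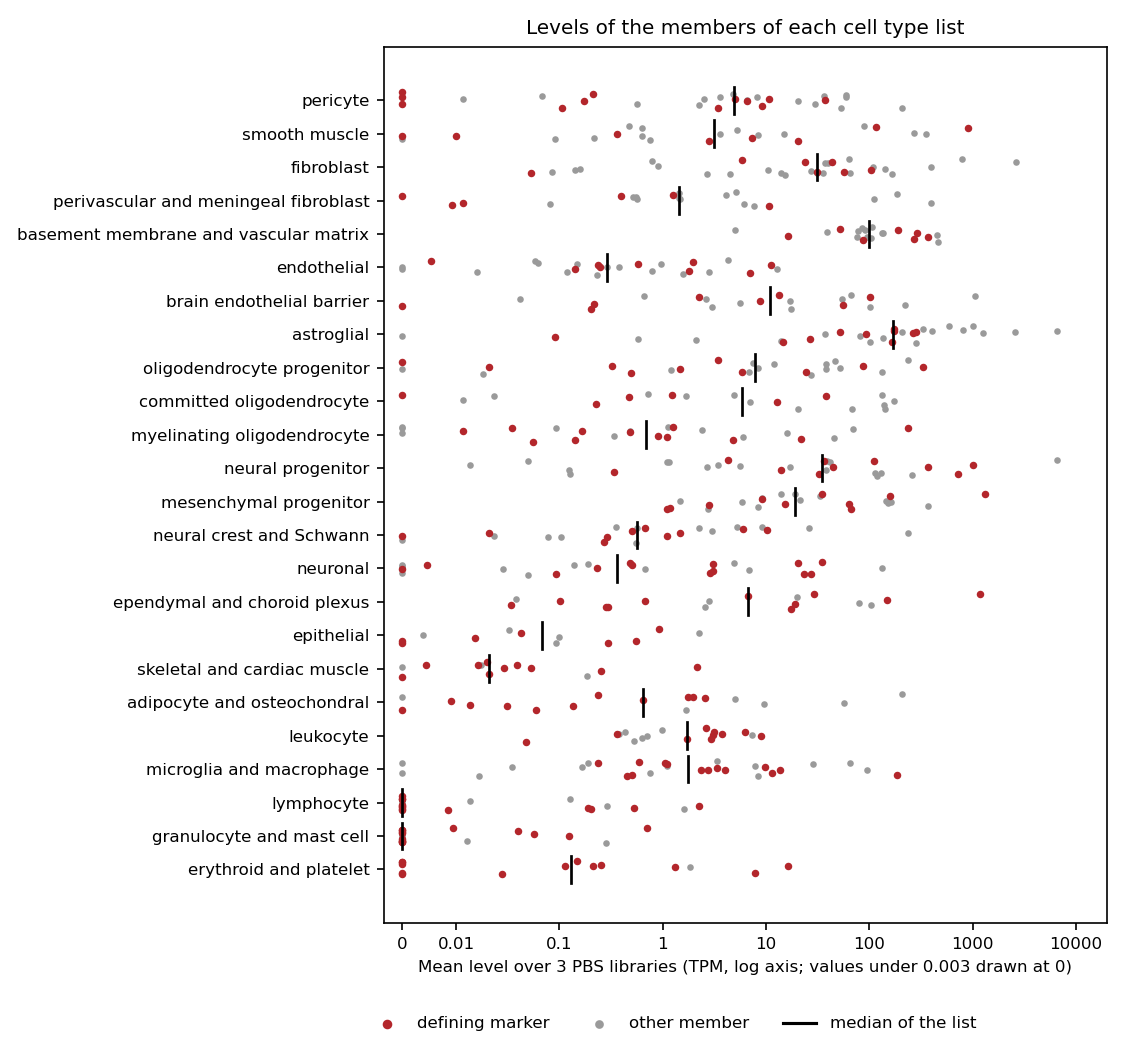
Each point is the mean level of a gene over the 3 PBS libraries in TPM on a log axis, with the members of each cell type list in a row, defining markers in red and the list's median as a black bar. The astroglial row has a median of 170 TPM and the pericyte row one of 4.86 TPM, and most members of the lymphocyte and granulocyte rows lie at 0.

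The pericyte list had 18 of 28 members at 1 CPM, with a median of 4.86 TPM. The receptor gene Pdgfrb, which takes the growth factor signal of the endothelium, stood at 64.1, 60.8 and 57.2 CPM in libraries 1, 2 and 3. Notch3, a Notch receptor of mural cells, stood at 24.6, 26.5 and 25.2 CPM. Cspg4, which encodes the surface proteoglycan NG2, stood at 11.3, 11.8 and 13.1 CPM. These 3 genes were present at like levels in the 3 libraries, and the spread of each was small beside its mean. The adhesion molecule gene Mcam had a mean of 9.01 ± 0.974 CPM (n = 3). The peptidase gene Anpep had 6.07 ± 0.741 CPM (n = 3), and the matrix gene Vtn had 2.98, 4.58 and 4.42 CPM. Pdgfrb, Cspg4, Notch3, Mcam and Anpep are not limited to pericytes, and Cspg4 is also a member of the oligodendrocyte progenitor list.

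Of the genes that separate brain pericytes in tissue, all but Vtn rested on few or no counts. Rgs5, a regulator of G protein signalling, stood at 0.0790, 0.482 and 0.302 CPM, and rested on 30 counts over all 3 libraries. Kcnj8, the pore of the vascular ATP-sensitive potassium channel, had 0 counts in libraries 1 and 3 and 0.241 CPM in library 2. Abcc9, the regulatory subunit of that channel, had 0 counts in each. A count of 0 in a library allows a level of up to 0.0905 CPM at the least deep of the 3, for counting error only. Atp13a5, an ATPase of transporter type, had a mean of 0.242 ± 0.103 CPM (n = 3). Higd1b and Ndufa4l2, both linked to mitochondria and hypoxia, had 0 counts in every library. The members highest per length were instead Steap4, a metalloreductase gene at 207 ± 5.17 TPM, S1pr3, a sphingosine-1-phosphate receptor gene at 59.6 ± 3.77 TPM, and Gper1, a receptor gene for oestrogen at 59.0 ± 4.12 TPM. Cd248, which encodes endosialin of perivascular stroma, followed at 52.7 ± 6.63 TPM. Steap4 alone made up 31.9% of the list's summed CPM.

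**Figure D2:**
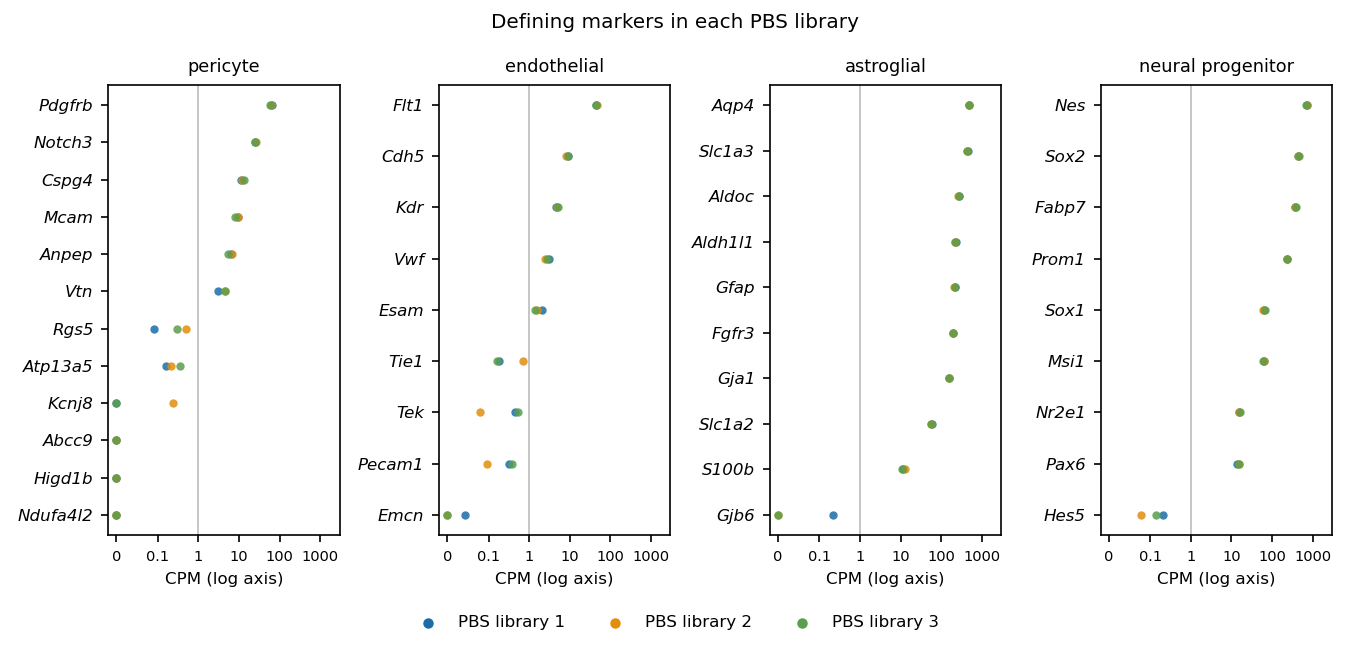
Each point is the level of a defining marker, of those reported here, in a PBS library in CPM on a log axis, coloured by library, with a grey line at 1 CPM and values of 0 drawn at the left tick. Abcc9, Higd1b and Ndufa4l2 lie at 0 among pericyte genes, Flt1 is drawn near 45.0 CPM, not corrected for its length, and all astroglial markers except Gjb6 lie above 10 CPM.

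Genes of contractile smooth muscle were uneven. Acta2, smooth muscle actin, stood at 608, 566 and 571 CPM, and its mean of 893 ± 62.6 TPM (n = 3) was the highest per length on its list. Myl9, a myosin light chain, had 351 ± 30.8 TPM, Tpm1, a tropomyosin, 274 ± 29.2 TPM, and Cnn1, calponin, 115 ± 4.07 TPM. In the same libraries Myh11, the smooth muscle myosin heavy chain, stood at 0.685, 1.05 and 0.687 CPM. Myocd, the coactivator that drives the contractile programme, rested on 2 counts over the 3 libraries, and Des, desmin, had 0 counts. Tagln, which encodes transgelin, stood at 1.65 ± 0.487 CPM. Its value is uncertain, since 62.4% of its exon length overlaps the model Gm48529 on the other strand and the handling of strand is not stated. In all, 14 of 22 smooth muscle members and 5 of 8 defining ones reached 1 CPM.

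Matrix genes ranged widely per length. Among protein-coding genes Sparc ranked 17 and Col6a1 ranked 123, whereas Col3a1 ranked 6529. The fibroblast list had 25 of 30 members at 1 CPM, a median of 31.2 TPM and 6 of 7 defining members present. Sparc, a secreted glycoprotein that binds collagen, stood at 3130, 2925 and 2849 CPM and took 43.6% of that list's sum. Fn1, fibronectin, had 395 ± 27.5 TPM and Col6a1, a chain of collagen VI, 784 ± 43.3 TPM (n = 3). The fibrillar collagen genes were lower per length, with Col1a1 at 104 ± 9.63 TPM, Col1a2 at 31.1 ± 3.56 TPM and Col3a1 at 24.1 ± 2.17 TPM. In the 3 libraries Col1a1 stood at 205, 216 and 188 CPM. The small proteoglycan genes Dcn and Lum, which shape collagen fibrils, stood at 56.9 ± 3.33 and 43.2 ± 3.66 TPM. Pdgfra, the receptor gene of fibroblasts and of oligodendrocyte progenitors, had 15.5, 16.1 and 20.2 CPM. Dpt, dermatopontin, rested on 3 counts.

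Markers of the fibroblasts of brain vessels and meninges were mostly missing. Of 6 defining genes 1 reached 1 CPM, the transcription factor Foxc1 at 18.4 ± 0.920 CPM. The transporter genes Slc6a13 and Slc47a1 rested on 1 count each, and Slc22a6 had 0. Of the whole list 9 of 20 members reached 1 CPM, led per length by Islr at 393 ± 14.1 TPM, Spp1 (osteopontin) at 186 ± 10.9 TPM and Bgn (biglycan) at 111 ± 9.85 TPM.

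All 20 genes of basement membrane and vascular matrix reached 1 CPM, with a median of 99.1 TPM and a sum of 7172 ± 200 CPM (n = 3). Col4a1 and Col4a2, the collagen chains of every basement membrane, stood at 370 ± 17.6 and 287 ± 10.8 TPM. Nid2, a nidogen that links laminin to collagen, had 467 ± 22.1 TPM. Lamb2 and Lamc1, laminin chains, had 452 ± 26.6 and 271 ± 11.5 TPM, and Hspg2, perlecan, had 190 ± 13.4 TPM. The laminin chain of vessels, Lama4, stood at 317, 321 and 292 CPM.

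Endothelial genes were low. The list summed to 83.3, 82.5 and 84.3 CPM in the 3 libraries. Of 25 members 10 reached 1 CPM, as did 5 of 9 defining ones, and the median was 0.291 TPM. Flt1, a receptor for vascular endothelial growth factor, made up 54.0% of that sum, at 44.5, 45.7 and 44.9 CPM. Without it the list summed to 38.4 ± 1.38 CPM. Cdh5, the junctional cadherin of endothelium, had 8.69 ± 0.693 CPM, Kdr, the main signalling receptor of that growth factor, 4.81 ± 0.194 CPM, and Vwf, the clotting protein of endothelial granules, 2.75 ± 0.309 CPM. Pecam1, the platelet-endothelial adhesion molecule, stood at 0.316, 0.0905 and 0.385 CPM. Tek and Tie1, the angiopoietin receptor pair, stood at 0.343 ± 0.248 and 0.348 ± 0.300 CPM, and Emcn rested on 1 count. Of the 25 members 1, Flt1, reached 10 CPM in every library. Per length Plvap, a protein of endothelial diaphragms, was highest at 12.9 ± 0.601 TPM, beside 11.2 ± 0.373 TPM of Flt1.

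The list of brain endothelial barrier genes held 15 of 20 members at 1 CPM, led per length by genes that many cell types use. Bsg, a partner of lactate transporters, stood at 1047 ± 81.2 TPM, the lactate transporter gene Slc16a1 at 219 ± 4.83 TPM and the glucose transporter gene Slc2a1 at 102 ± 9.86 TPM. Mfsd2a, a lipid transporter that limits transcytosis, had 38.8, 37.0 and 35.1 CPM, and the organic anion transporter gene Slco1c1, which carries thyroid hormone, had 13.5 ± 0.982 CPM. Cldn5, the main claudin of the barrier, had 0 counts in every library. Abcb1a, the drug efflux pump, stood at 0.326 ± 0.0208 CPM. Ly6c1, an endothelial surface antigen whose reads can be split with near-identical Ly6 genes, rested on 12 counts.

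Astroglial genes were the most complete of the glial lists. Astrocytes keep the extracellular space of the brain by taking up glutamate, water and potassium, and carry the filament proteins GFAP and vimentin. Of 28 members 25 reached 1 CPM and 20 reached 100 CPM in every library, a level that 4.28% of all genes and 10.8% of protein-coding genes reached. The median member stood at 170 TPM. Vim, vimentin, was the most abundant mRNA of the nuclear genome, at 9694, 8973 and 9169 CPM, and is also made by fibroblasts, pericytes and most cultured cells. Without Vim the list summed to 7479 ± 42.3 CPM (n = 3).

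Among the defining astroglial genes, Aqp4, the water channel of astrocyte endfeet, stood at 470, 488 and 495 CPM. Gfap, the astroglial filament, stood at 225, 211 and 218 CPM. Slc1a3, the glutamate transporter of early astroglia, stood at 452, 438 and 432 CPM. For these 3 genes the SD was 2.66%, 3.03% and 2.39% of the mean, and no library stood apart. Slc1a2, the glutamate transporter of mature astrocytes, was lower per length, at 14.6 ± 0.999 TPM (n = 3) against 174 ± 10.1 TPM of Slc1a3. Aldoc and Aldh1l1, enzymes used to mark astrocytes, stood at 285 ± 13.5 and 166 ± 10.8 TPM, and Fgfr3 at 91.9 ± 0.983 TPM. Of the gap junction genes, Gja1 had 154, 160 and 159 CPM, whereas Gjb6 had 0.211 CPM in library 1 and 0 counts in the other libraries. S100b, a calcium-binding protein gene, stood at 26.5 ± 2.77 TPM.

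Other astroglial members were as high or higher per length. Cst3, cystatin C, had 2558 ± 137 TPM, Mlc1, a membrane protein of astrocyte junctions, 1250 ± 19.5 TPM, and Fabp7, the fatty acid binding protein of radial glia, 1004 ± 18.9 TPM. Apoe, the lipid carrier, stood at 811 ± 34.0 TPM and Glul, glutamine synthetase, at 594 ± 54.1 TPM. Slc7a10, an amino acid transporter of mature astrocytes, had 0 counts. The gene for brain creatine kinase, Ckb, though on no list, was among the 15 genes of highest CPM, at 2431, 2338 and 2485 CPM.

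Neural progenitor genes stood beside the astroglial ones, with 22 of 28 members and 9 of 10 defining ones at 1 CPM and a median of 34.7 TPM. Nes, the filament nestin, stood at 724, 722 and 682 CPM. Sox2, the transcription factor that keeps neural stem cells undifferentiated, stood at 434, 435 and 450 CPM and at 720 ± 12.6 TPM. Prom1, which encodes the surface protein CD133, stood at 229, 235 and 238 CPM. Sox1 and Msi1, a neural transcription factor and an RNA-binding protein of progenitors, had 63.5 ± 2.67 and 63.2 ± 3.04 CPM. Nr2e1 and Pax6, both regulators of progenitor fate, stood at 15.5 ± 0.337 and 14.7 ± 1.09 CPM. Hes5, the Notch target of neural stem cells, stood at 0.211, 0.0603 and 0.137 CPM. The value of Hes5 is uncertain, since 31.8% of its exon length overlaps the model Gm20421 on the other strand. The list shares Vim and Fabp7 with the astroglial list and Nes with the mesenchymal progenitor list. Without Vim it summed to 3156 ± 17.6 CPM.

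Progenitor markers of mesenchyme were present too, with all 10 defining genes and 22 of 23 members, Nes among them, at 1 CPM. Itgb1, the common integrin beta chain, stood at 1326 ± 53.5 TPM, Cd44, the hyaluronan receptor, at 159 ± 25.4 TPM, Vcam1, an adhesion molecule, at 65.8 ± 3.01 TPM and Thy1, a surface antigen, at 63.0 ± 3.77 TPM. Nt5e, which encodes CD73, was the most uneven of the defining ones, at 3.79, 3.23 and 1.98 CPM. Genes of neural crest and Schwann cells were few, with 9 of 23 members and 3 of 10 defining ones at 1 CPM. The crest factor Foxd3 had 0 counts.

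The sequence before the start of a few markers is shown because those of high level differed widely among themselves in CG pairs. The 250 bases before the RefSeq start (GRCm38.p6) are given 5′ to 3′ on the strand of the gene, with each CG pair in capitals, for 3 genes of high level and 2 at 0 counts, chosen after their values were seen. The positions are chr15:88978554-88978803 for Mlc1, chr11:102897201-102897450 for Gfap and chr6:142702275-142702524 for Abcc9, all on the minus strand. They are chr3:34649745-34649994 for Sox2 and chr16:18776597-18776846 for Cldn5, both on the plus strand.
Mlc1: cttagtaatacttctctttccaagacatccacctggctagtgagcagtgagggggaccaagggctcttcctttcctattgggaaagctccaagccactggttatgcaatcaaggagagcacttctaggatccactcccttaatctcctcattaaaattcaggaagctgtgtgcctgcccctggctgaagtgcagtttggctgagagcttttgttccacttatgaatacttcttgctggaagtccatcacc
Gfap: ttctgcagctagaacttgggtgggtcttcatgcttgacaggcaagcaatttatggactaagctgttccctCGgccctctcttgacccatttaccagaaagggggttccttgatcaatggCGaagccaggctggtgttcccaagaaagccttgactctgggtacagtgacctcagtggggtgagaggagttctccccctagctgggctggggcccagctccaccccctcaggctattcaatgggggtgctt
Sox2: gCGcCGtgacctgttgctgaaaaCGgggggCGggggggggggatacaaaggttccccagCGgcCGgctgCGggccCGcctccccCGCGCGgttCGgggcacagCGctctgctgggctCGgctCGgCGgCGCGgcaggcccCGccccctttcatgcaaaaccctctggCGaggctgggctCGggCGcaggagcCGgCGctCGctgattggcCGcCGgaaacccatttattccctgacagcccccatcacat
Abcc9: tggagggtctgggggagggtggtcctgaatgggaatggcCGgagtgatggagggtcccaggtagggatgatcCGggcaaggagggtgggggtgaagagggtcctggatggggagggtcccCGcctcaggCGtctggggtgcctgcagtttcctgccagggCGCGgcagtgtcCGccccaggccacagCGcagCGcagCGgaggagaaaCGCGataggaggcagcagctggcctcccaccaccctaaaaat
Cldn5: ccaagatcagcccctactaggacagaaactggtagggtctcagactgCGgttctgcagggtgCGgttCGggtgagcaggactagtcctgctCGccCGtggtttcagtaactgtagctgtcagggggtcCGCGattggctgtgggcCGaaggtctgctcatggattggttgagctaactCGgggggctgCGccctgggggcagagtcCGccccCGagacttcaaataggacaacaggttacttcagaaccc
Mlc1, at 1039 CPM, had 0 CG pairs, as few as 7.87% of 32851 windows of the same length. Gfap had 2 pairs, and 29.0% of windows had as many or fewer. Sox2 had 27, and 8.56% of windows had as many or more. Abcc9 and Cldn5, both at 0 counts, had 12 each, and 33.5% of windows had as many or more. The median window had 6. The pair CG reads the same on both strands, its count is a description of these letters, and no methylation was measured. Only 77.0% of protein-coding symbols had a window, under the 80% required, so a check of CG pairs against level over all genes was void.

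Genes of the oligodendrocyte lineage were present in part. Of the progenitor list 17 of 24 members and 6 of 10 defining ones reached 1 CPM, with a median of 7.88 TPM. Olig1 and Olig2, the factors that open the lineage, stood at 212, 208 and 214 CPM and at 67.4, 61.0 and 67.8 CPM. Their levels per length were 330 ± 10.6 and 87.2 ± 5.63 TPM. Sox10, the factor that oligodendrocyte progenitors and neural crest share, rested on 2 counts over the 3 libraries. Gpr17, a receptor of progenitors on the way to differentiation, and Neu4, a sialidase, had 0 counts. C1ql1, a secreted protein of progenitors, had 10.7 ± 0.950 CPM and Tnr, a tenascin, 5.54 ± 0.181 CPM.

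Of the committed oligodendrocyte list 12 of 18 members reached 1 CPM, with a median of 5.90 TPM. Of its 6 defining genes 3 did, Bmp4 at 25.3 ± 5.06 CPM, Tcf7l2 at 32.8 ± 2.56 CPM and Bcas1 at 1.39 ± 0.183 CPM. The homeobox factor Nkx6-2 led that list per length at 173 ± 5.25 TPM. Myrf, the regulator of myelin genes, stood at 1.11, 0.995 and 1.54 CPM, and library 2 kept it under the threshold. Of the myelin list 11 of 24 members reached 1 CPM, with a median of 0.687 TPM. Cnp, an enzyme of myelin and of progenitors, had 246, 256 and 260 CPM and made up 66.8% of its sum. Mbp, the basic protein of myelin, stood at 12.0 ± 0.297 CPM. Mog and Mag, proteins of the outer and inner myelin face, rested on 8 and 7 counts, and Opalin on 1.

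Neuronal genes were present in part. Of 26 members 10 reached 1 CPM, with a median of 0.357 TPM. Map2, a microtubule protein that some glia also make, stood at 172, 173 and 164 CPM, and Stmn2, a growth cone protein, at 48.5, 42.2 and 45.9 CPM. The neurofilament genes Nefl and Nefm had 23.3 ± 0.822 and 35.0 ± 3.01 CPM. Both values are uncertain, since the genes overlap on opposite strands, over 32.8% of the exon length of Nefl and 19.2% of that of Nefm. Rbfox3, which encodes the nuclear antigen NeuN, rested on 1 count, and the glutamate transporter gene Slc17a6 had 0. Among ependymal and choroid plexus genes, Foxj1, the master factor of motile cilia, stood at 846, 940 and 944 CPM. It came to 1168 ± 44.2 TPM and made up 73.7% of the sum of its list. The cilia gene Pifo had 149 ± 7.32 TPM. Ttr, the thyroid hormone carrier of the choroid plexus, rested on 11 counts, and in all 6 of 11 defining genes of that list reached 1 CPM.

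Leukocyte RNA was scarce. The common leukocyte list summed to 29.4, 30.9 and 31.4 CPM in the 3 libraries, of which Ptpn6, a phosphatase gene, gave 6.08 ± 0.360 CPM. Ptprc, which encodes the leukocyte antigen CD45, stood at 0.0527, 0.392 and 0.330 CPM. Laptm5 and Lcp1, a lysosomal protein and a plastin, stood at 3.49 ± 0.709 and 4.87 ± 0.145 CPM, and Tyrobp, a signalling adaptor of myeloid cells, at 1.77 ± 0.826 CPM. Thus 7 of 10 defining leukocyte genes passed 1 CPM without any of them reaching 10 CPM.

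The microglia and macrophage list had 16 of 28 members and 10 of 14 defining ones at 1 CPM, and summed to 310 ± 6.82 CPM. Lyz2, a lysozyme gene with a near copy in Lyz1, stood at 70.9, 76.0 and 72.0 CPM, and Sall1, also a factor of neural and kidney cells, at 149, 149 and 144 CPM. Csf1r, the receptor of macrophage growth factor, had 4.71 ± 0.302 CPM, but 15.1% of its exon length overlaps Hmgxb3 on the other strand, at 41.0 CPM. C1qa, a complement chain, had 3.51 ± 0.407 CPM, Cx3cr1, the fractalkine receptor, 1.48 ± 0.158 CPM, and P2ry12, the purine receptor of microglia, 0.451 ± 0.139 CPM. Ccr2 and Siglech, genes of monocytes and of microglia, had 0 counts. Of lymphocyte genes 2 of 20 reached 1 CPM, Lck at 1.96 ± 0.239 CPM and Klrb1c at 1.41 ± 0.281 CPM. The CD3 subunit genes Cd3d, Cd3e and Cd3g had 0 counts. Of granulocyte and mast cell genes 0 of 18 reached it. Of erythroid and platelet genes 2 of 14 did, Itga2b at 26.2 ± 1.11 CPM and Pf4 at 1.67 ± 0.411 CPM. The adult haemoglobin genes Hbb-bs, Hbb-bt and Hba-a2 had 0 counts. Hba-a1, also on the list, had at least 3 counts over the libraries and did not reach 1 CPM in every library.

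Of skeletal and cardiac muscle genes 0 of 13 reached 1 CPM, and Acta1 was highest per length at 2.16 ± 0.297 TPM. Of epithelial genes 1 of 12 did, the tight junction gene Ocln at 2.83 ± 0.351 CPM. Of adipocyte, bone and cartilage genes 8 of 17 did, led per length by Sox9 at 208 ± 5.80 TPM, a factor that astroglia share, whereas the fat hormone gene Adipoq had 0 counts.

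All 30 proliferation genes reached 10 CPM in every library, a level that 18.3% of all genes and 45.8% of protein-coding genes reached. Mki67, a marker of cycling cells, stood at 226, 248 and 244 CPM, Top2a, the topoisomerase of mitosis, at 342, 371 and 355 CPM, and Pcna, the sliding clamp of DNA replication, at 208, 230 and 224 CPM. In the same libraries the inhibitors of the cell cycle were present as well. Cdkn2a, whose locus encodes the proteins p16 and ARF, stood at 84.5, 94.0 and 87.0 CPM, Cdkn1a, which encodes p21, at 269, 249 and 264 CPM, and Cdkn2b, which encodes p15, at 68.3, 66.4 and 66.7 CPM. Per length the means of these inhibitors came to 254, 247 and 163 TPM.

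Receptors show which signals these cells had the RNA to receive. Among receptor tyrosine kinases 34 of 54 reached 1 CPM. The collagen receptor gene Ddr1 was highest per length at 474 ± 12.7 TPM, followed by Axl, a receptor for Gas6, at 289 ± 14.1 TPM and Fgfr1 at 170 ± 7.37 TPM. The neurotrophin receptor gene Ntrk2 stood at 441, 448 and 475 CPM and at 79.4 ± 0.783 TPM. Of the growth factor receptors used above as markers, Fgfr3 stood at 91.9 ± 0.983 TPM, Pdgfrb at 37.4 ± 3.42 TPM, Flt1 at 11.2 ± 0.373 TPM and Pdgfra at 5.79 ± 0.666 TPM.

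Of TGF-beta family receptors 11 of 14 reached 1 CPM. Tgfbr2, the type II TGF-beta receptor, stood at 462, 458 and 453 CPM and Bmpr1a, a type I BMP receptor, at 235, 232 and 243 CPM. Per length they came to 188 ± 8.23 and 126 ± 2.82 TPM. Acvrl1, the endothelial receptor ALK1, stood at 1.45, 2.08 and 1.26 CPM. Of Notch, Wnt and Hedgehog receptors 22 of 23 reached 1 CPM. Their highest members per length were the frizzled gene Fzd1 at 128 ± 1.44 TPM, the Hedgehog receptor gene Ptch1 at 110 ± 0.525 TPM, Notch2 at 108 ± 3.19 TPM, the Wnt coreceptor gene Adgra2 at 104 ± 4.90 TPM and the Hedgehog transducer gene Smo at 97.0 ± 5.68 TPM. Notch1 had 41.9 ± 0.679 TPM, while Notch3, the mural member, had 10.6 ± 0.470 TPM.

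**Figure D3:**
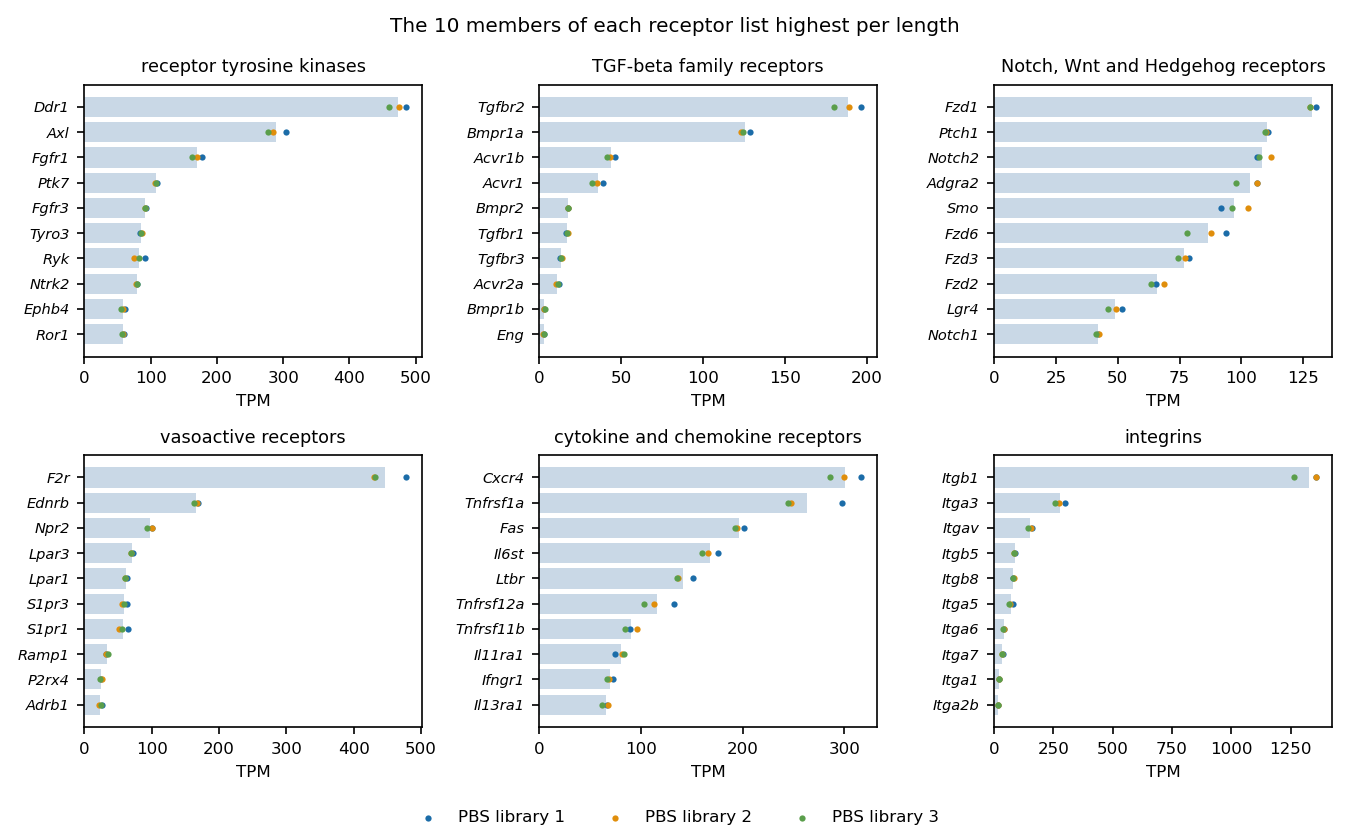
Bars give the mean level over the 3 PBS libraries in TPM for the 10 members of each receptor list highest per length, and points give each library. Itgb1 reaches 1326 TPM, Ddr1 474 TPM, F2r 447 TPM and Cxcr4 301 TPM, and the points of a gene lie close to its bar's end.

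Receptors for substances that act on vessel tone were present for 36 of 62. F2r, the thrombin receptor PAR1, led at 458, 425 and 443 CPM and 447 ± 27.1 TPM. Ednrb, the endothelin B receptor of astrocytes and endothelium, had 207, 211 and 214 CPM, against 11.0, 10.4 and 10.3 CPM of Ednra, the endothelin A receptor of mural cells. Per length Ednrb stood at 166 ± 2.84 TPM and Ednra at 6.53 ± 0.457 TPM. Npr2, a natriuretic peptide receptor, had 97.9 ± 4.12 TPM. Receptors of vascular mural cells were uneven, and those named here do not cover the list. S1pr3 stood at 78.9 ± 3.84 CPM, and the adrenergic receptor genes Adra1b and Adra1a at 17.7 ± 0.621 and 10.5 ± 0.411 CPM. Some others were below 1 CPM. Members of the receptor and transcription factor lists named below 1 CPM here and below were chosen after their values were seen. Agtr1a, the angiotensin receptor, rested on 16 counts, and P2ry14, a purine receptor of pericytes, on 4. The subunits of the nitric oxide receptor, Gucy1a1 and Gucy1b1, rested on 1 and 17 counts.

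Of cytokine and chemokine receptors 27 of 45 reached 1 CPM. Cxcr4, the receptor of Cxcl12, stood at 164, 160 and 159 CPM and at 301 ± 15.2 TPM. The tumour necrosis factor receptor gene Tnfrsf1a had 222, 190 and 195 CPM, the death receptor gene Fas 119, 119 and 122 CPM, and Il6st, the shared gp130 chain, 562, 547 and 547 CPM. The interferon receptor chains Ifngr1, Ifngr2 and Ifnar1 stood at 69.3 ± 2.94, 41.2 ± 0.484 and 48.1 ± 1.53 TPM. The leukocyte receptors Ccr2, Ccr7, Cxcr1 and Cxcr2 had 0 counts. Of pattern recognition receptors and their partners 13 of 23 reached 1 CPM. Tlr1 was highest at 89.6 ± 6.32 TPM, followed by the RNA sensor gene Ddx58 at 33.3 ± 2.03 TPM and the adaptor gene Myd88 at 29.4 ± 2.62 TPM, and Tlr3, the receptor of double-stranded RNA, had 9.41 ± 0.837 TPM. Of integrins 16 of 26 did, with the partner chains Itga3, which binds laminin, at 277 ± 22.9 TPM and Itgav, which binds fibronectin and vitronectin, at 152 ± 9.01 TPM.

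Transcription factors set which programmes a cell can run. Among glial and neural factors 26 of 36 reached 1 CPM, with a median of 12.4 TPM. Sox2 was highest at 720 TPM, then Olig1 at 330 TPM, Nfix, a factor of glial differentiation, at 278 ± 11.3 TPM, Sox9, which opens the astroglial fate, at 208 ± 5.80 TPM and Nkx6-2 at 173 TPM. Sox21, which acts beside Sox2 in neural progenitors, had 123, 129 and 130 CPM. The proneural factor Neurod1 had 0 counts. This list shares 12 of its members with the neural progenitor list and is not a separate measurement of them.

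**Figure D4:**
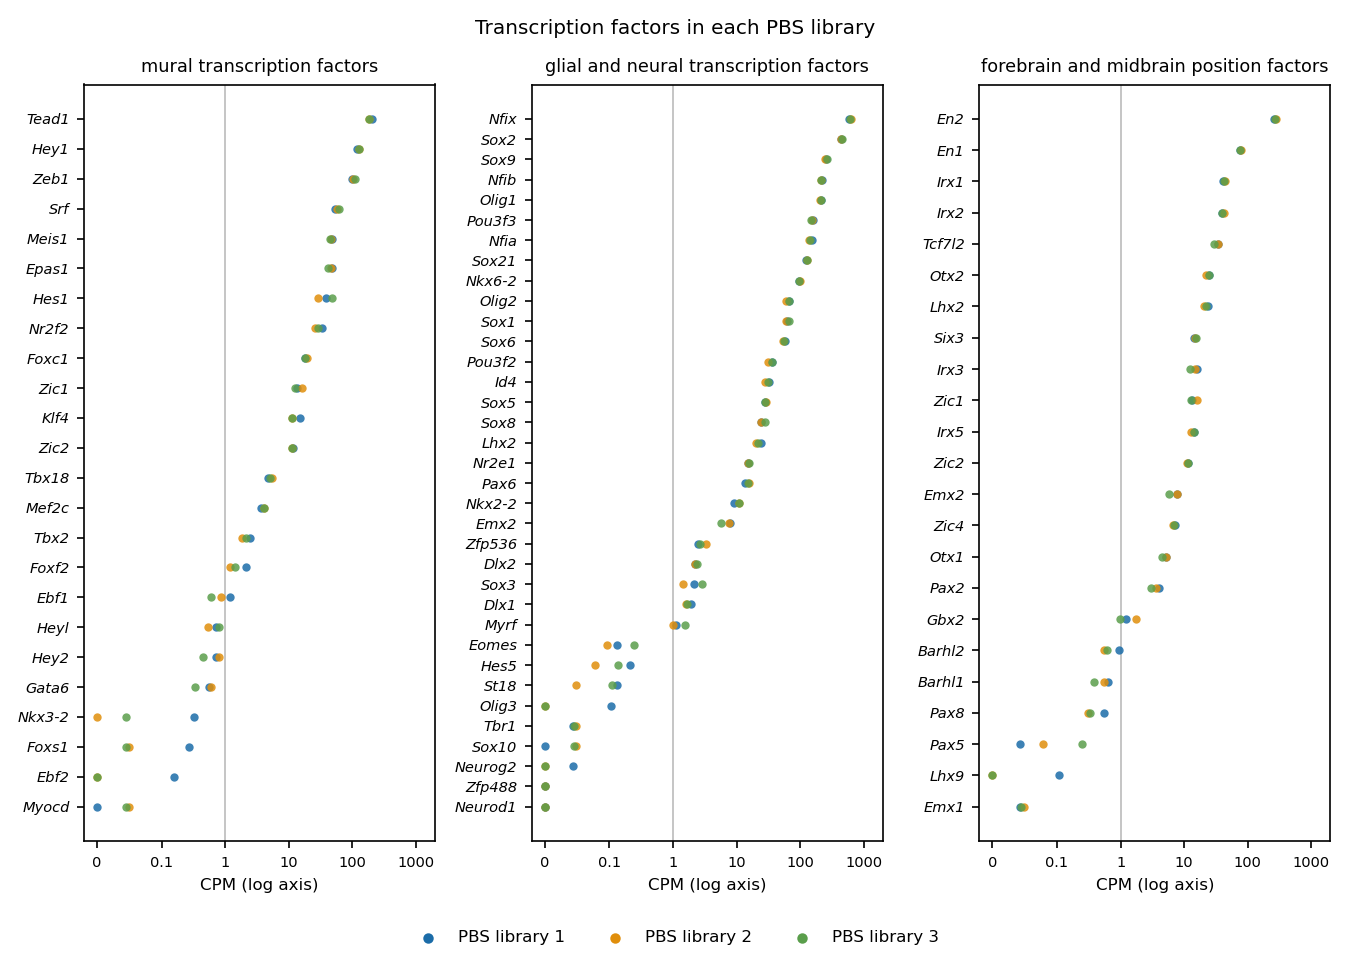
Each point is the level of a transcription factor gene, of those reported here, in a PBS library in CPM on a log axis, coloured by library, with a grey line at 1 CPM and values of 0 drawn at the left tick. In CPM, not corrected for length, En2 is drawn at the top of the position factors at 268 CPM and Nfix at the top of the glial and neural factors at 607 CPM, and Myocd is at the foot of the mural factors.

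Of the mural factors 16 of 24 reached 1 CPM, with a median of 5.91 TPM. Their highest members per length were broadly used ones, the Notch target gene Hey1 at 129 ± 3.96 TPM, the serum response factor gene Srf at 66.1 ± 2.57 TPM, the Notch target gene Hes1 at 62.7 ± 13.7 TPM and the Hippo partner gene Tead1 at 47.2 ± 4.47 TPM. Of those tied to brain mural cells, Foxc1 stood at 17.6, 19.4 and 18.1 CPM, and Tbx18 at 4.72, 5.34 and 5.06 CPM. Foxf2 stood at 2.13, 1.18 and 1.40 CPM. Zic1, also on the pericyte list and on that of forebrain and midbrain factors, stood at 13.2, 15.8 and 12.6 CPM. Heyl, a Notch target of mural cells, had 0.684 ± 0.129 CPM and Foxs1 rested on 12 counts. Of the mesenchymal factors 15 of 34 reached 1 CPM. Prrx2 stood at 206, 222 and 221 CPM and at 372 ± 8.98 TPM, and its relative Prrx1, also a limb and craniofacial factor, at 33.4 ± 0.781 TPM. Twist1, which acts in mesenchyme, had 145 ± 9.07 TPM, and Lmx1b, a factor of limb and midbrain, had 129 ± 3.74 TPM. Tcf21, a factor of organ fibroblasts, had 0 counts.

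Of endothelial factors 9 of 20 reached 1 CPM, led per length by Ets2 at 24.3 ± 3.31 TPM and Klf2 at 20.2 ± 2.54 TPM, and Sox7 had 17.2 ± 2.13 TPM. The ETS factors Erg and Fli1, which hold endothelial identity, rested on 16 counts each, and Sox17 and Tal1 had 0. Of leukocyte factors 5 of 22 did, with Sall1 making up 63.1% of the sum. Cebpa, a factor of myeloid and fat cells, had 44.5 ± 3.30 CPM. Spi1, the factor PU.1 of the myeloid line, stood at 0.685, 0.482 and 0.632 CPM, and Gata1, Tbx21 and Cebpe had 0 counts.

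Factors that mark position along the neural tube were uneven. Homeobox genes of the Hox clusters, which mark hindbrain, spinal cord and trunk, were not detectable. Of 39 Hox genes 0 reached 1 CPM, 35 had 0 counts in all 3 libraries, and the highest, Hoxd8, rested on 6 counts. Of 24 forebrain and midbrain factors 17 reached 1 CPM. En2 and En1, the engrailed factors of the midbrain and anterior hindbrain, stood at 256, 275 and 273 CPM and at 75.5, 78.8 and 76.8 CPM. The Iroquois genes Irx1 and Irx2 had 54.2 ± 1.51 and 41.9 ± 2.56 TPM. Otx2, of forebrain and midbrain, stood at 24.2, 22.2 and 24.7 CPM. Emx1, of the dorsal cortex, rested on 3 counts. The SD was 3.95% of the mean for En2 and 2.15% for En1, and no library stood apart in these genes.

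The libraries were alike in these lists but not in every gene. Among named genes of at least 10 CPM, the widest spread was that of Ptgs2, the inducible prostaglandin synthase, at 39.9, 5.04 and 7.01 CPM. Nupr1, a stress-induced chromatin protein, stood at 50.1, 12.96 and 13.02 CPM, and Ier3, an early response gene, at 57.8, 24.99 and 29.5 CPM. Library 1 was high in these 3 genes, and also in Gem, a small GTPase, and in Hspa1b, a heat shock gene with a near copy in Hspa1a. Library 3 was instead high in genes that respond within minutes to stimulation. Egr2 stood at 9.14, 5.43 and 16.4 CPM, Nr4a1 at 14.1, 10.3 and 26.1 CPM and Fosb at 16.7, 9.56 and 22.2 CPM. The list of immediate early genes summed to 1292, 1076 and 1697 CPM. A ribosomal RNA gene, CT010467.1, had 2025, 4784 and 7147 CPM in libraries 1, 2 and 3, and Lars2, a mitochondrial tRNA synthetase, had 318, 664 and 874 CPM. Both were lowest in library 1. The share of counts in ribosomal RNA genes was 0.203%, 0.481% and 0.711%. Its part in the values of other genes was not tested.

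**Figure D5:**
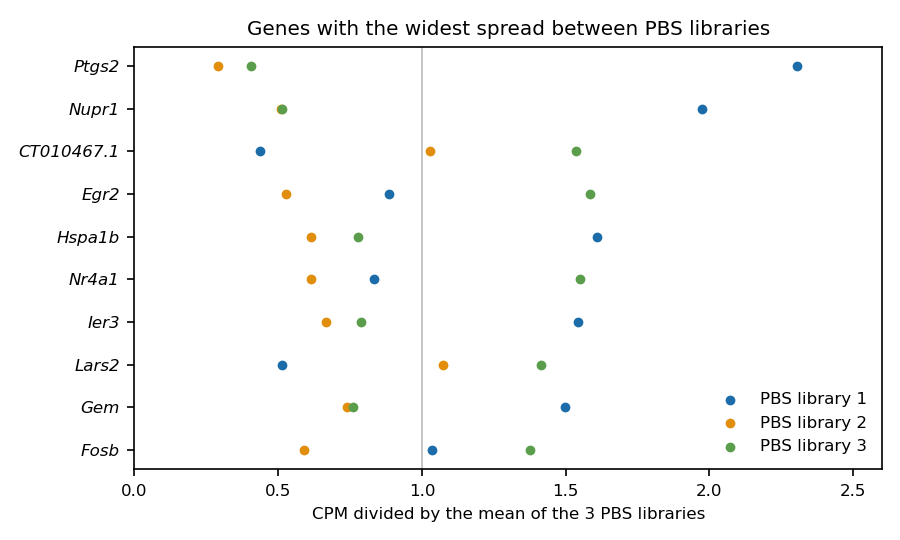
Each point is the CPM of a gene in a PBS library divided by the mean over the 3 libraries, for the 10 named genes of at least 10 CPM with the largest SD relative to the mean. Ptgs2 and Nupr1 lie far to the right in library 1, while CT010467.1 and Lars2 are lowest in library 1 and highest in library 3.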

How the data were processed

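Total RNA was extracted with Trizol and made into libraries with the NEBNext Ultra RNA kit, per the labels' protocols. The authors' deposited table holds raw read counts per gene for each library, with no normalization. Per the submitters' processing notes, reads were checked with FastQC 0.11.8, aligned with HISAT2 2.0.5 and counted with featureCounts 1.5.0-p3, and limma was used for testing. The genome build, the annotation and the use of strand are not given in the sources used here, so reads of overlapping genes are uncertain. Of the per-sample columns of the whole series, the 9 that belong to no PBS library of this label were not used.

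CPM was computed from these counts in R 4.3.3 with edgeR 4.0.16, with library sizes scaled by TMM over the 3 PBS libraries. DESeq2 1.42.0 gave the alternative size factors. TPM used the union exon length of GENCODE M21, found for 55141 of 55401 gene identifiers (99.5%). A gene counted as present at 1 CPM or more in every library, and 3 counts were taken as the floor. The reads carry no molecular identifiers and can be copies of one another, so floors cover counting error only. The spread was estimated over 15667 genes kept by filterByExpr at a minimum count of 10. No groups were compared and no test was made. The steps for library scaling and spread were tested on simulated data, and the other steps were not.

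In all, 43 lists with 959 genes were used, with 1 further name missing from the table. The members and lists were chosen with earlier results of these data known. Genes were named by a rule: a list's defining genes, its 6 members highest per length, members under 3 counts, receptors and factors above the threshold, the 15 genes highest in CPM or per length, and the 10 named genes of widest spread. Other genes carry a remark. Some genes that this rule takes in count in the lists but are not reported here. Alternatives were other size factors, plain totals, thresholds of 0.5 and 5 CPM, a threshold on the mean and each library left out.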

Additional observations from a re-analysis of the deposited data

How the results depend on the processing

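No paired analysis was possible because no groups were compared and no result comes from a test. Every count of list members at 1 CPM stayed within 1.5 times its value under DESeq2-type size factors, plain totals, a threshold on the mean and each library left out. At a threshold of 5 CPM the counts that moved further were 9 for smooth muscle, 3 for endothelium, 7 for myelin, 6 for neurons, 0 for epithelium, 4 for adipocyte, bone and cartilage genes, 1 for leukocytes, 5 for microglia and macrophages, 0 for lymphocytes, 1 for erythroid cells and platelets, 22 for vasoactive receptors and 8 for pattern recognition receptors. At 0.5 CPM they were 15 for perivascular and meningeal fibroblasts, 3 for epithelium and 1 for skeletal and cardiac muscle. The coefficient of variation lay between 0.0548 and 0.0701 with a library left out. Levels that rest on few counts, such as those of Kcnj8 and Sox10, are limited by depth.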

Other observations

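Genes of the sex chromosomes were present from both sides. Xist, the RNA that silences an X chromosome in female cells, stood at 631, 681 and 669 CPM. The Y-linked genes Eif2s3y, Ddx3y, Uty and Kdm5d had means of 37.2 ± 0.659, 28.4 ± 3.55, 12.8 ± 0.528 and 13.3 ± 0.810 CPM (SD, n = 3). The levels were alike in the 3 libraries, and the labels give neither the sex of the animals nor whether cells were pooled.

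Of 40 genes for secreted trophic and angiogenic factors 33 reached 1 CPM. Tgfb3, a TGF-beta ligand, and Csf1, the growth factor of macrophages, stood highest per length, at 186 ± 13.3 and 186 ± 8.82 TPM. Kitl, stem cell factor, had 284, 288 and 288 CPM, and Cx3cl1, fractalkine, 93.3, 88.0 and 84.6 CPM. Ccl2, the monocyte chemokine, stood at 24.5, 14.5 and 22.6 CPM, lowest in library 2. The growth factor of granulocytes and macrophages, Csf2, had 0 counts.

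Beside mitochondrial genes and the matrix gene Sparc, the 15 genes of highest CPM held Scd2, a fatty acid desaturase of brain, at 3334, 3102 and 3230 CPM. They also held Igfbp5, a binding protein of insulin-like growth factors, at 2352, 2387 and 2378 CPM. Ntn1, the guidance cue netrin, was among them at 2247, 2244 and 2205 CPM. Per length the 15 highest protein-coding genes included Ifitm3, an antiviral membrane protein, at 3923 ± 233 TPM, S100a6, a calcium-binding protein, at 3343 ± 427 TPM, and Lgals1, a galectin, at 3073 ± 112 TPM.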
